A study of Homo sapiens and Mus musculus with 6 samples.

Results

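The Hi-C data of mouse embryonic stem cells (mESCs) hold a list of paired 25-kb genomic bins that were joined by more sequenced read pairs than the coverage of the bins and their distance predicted. Of the 62666 listed pairs, 10095 were joined by at least 20 read pairs and by at least 2 times the expected number (16.1%, with a Wilson 95% interval of 15.8 to 16.4%), and these are called enriched pairs here. They occupied 14606 of the 59106 listed bins. The enriched pairs were thus selected on their read pairs and their ratio, so both are given as a description and not as a finding. The material was 1 Hi-C library of J1 ESCs of the 129S4/SvJae strain. The cells were expanded on irradiated fibroblasts that were later removed by passaging, fixed with formaldehyde and cut with HindIII, with no treatment and no comparison group. No expression was measured in the library, so neither the cell type nor leftover fibroblasts could be checked against marker genes. With 1 library, no difference has a replicate check, and all intervals cover counting error only.

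Hi-C joins DNA ends that lay close together in fixed nuclei, and the count of joined ends falls steeply with genomic distance, so a contact is read against the number expected at its distance. Many contacts in mammalian nuclei are loops anchored by CTCF, a zinc-finger protein, and cohesin, the ring complex that extrudes DNA, and the CTCF motifs at loop anchors usually point towards each other. In ESCs, genes of developmental transcription factors are mostly silent, and many lie in chromatin bound by the Polycomb repressive complexes. Neither CTCF nor Polycomb binding was measured in this library.

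DNA sequence was not used in the choice of the enriched pairs, and a CTCF-type motif of 12 letters (CCAC, any base, AGG, any base, GGC) was searched on both strands of mm9. It had 6667 matches and lay in 7.58% of the listed bins (4479 of 59106) and in 12.02% of the bins of enriched pairs (1755 of 14606, 11.5 to 12.6%). The arrangement is called facing when a forward match in the bin of lower coordinate and a reverse match in the other bin point towards each other, and opposed when both point away. The windows printed here are those of facing pairs at least 100 kb apart with a high ratio: the 3 highest, and 2 pairs that share an anchor in *Qrich2*, chosen after their values were seen. Pairs whose bins shared 1% or more of their 31-base words were left out of this choice. The 12 letters of the motif are in capitals, the flanks are in lower case, and all windows are read on the forward strand of mm9, so that a reverse match appears as its complement. The bin of *Wnt10b* and *Wnt1*, genes of secreted signalling proteins, was joined to a bin 316 kb away by 27 read pairs where 2.00 were expected. Its forward match lay between genes at chr15:98611790-98611819 and the reverse match in an exon of *Dnajc22* at chr15:98932043-98932072.
Wnt1 side: ccccagcgcCCACAAGGTGGCtcacaacca
Dnajc22 side: cacttcttgGCCGCCTCGTGGagtctgtct
The next pair spanned 148 kb on chromosome 14, with 26 read pairs where 3.64 were expected, between a bin without gene starts and the bin of *Kcnk16*, a potassium channel gene. All 3 matches lay between genes, at chr14:20931591-20931620 and chr14:20933408-20933437 on the forward strand and at chr14:21077876-21077905 on the reverse strand.
First forward match: ttagtaatgCCACAAGGTGGCaatgttgca
Second forward match: aggatgtgaCCACAAGGGGGCagtggcgcc
Kcnk16 side: tgtgagcctGCCACCTGGTGGtatgtcctg
The third pair was also on chromosome 14, spanned 528 kb and had 23 read pairs where 3.28 were expected. Its forward match lay in an intron of *Tsc22d1* at chr14:76879736-76879765, and the reverse match lay between genes at chr14:77408240-77408269.
Tsc22d1 side: gcatgtgttCCACAAGGTGGCaggcttgta
Far side: agtgcttctGCCACCTGGTGGcagtctacc
On chromosome 11, 1 reverse match in an intron of *Qrich2* (chr11:116307503-116307532) faced a match in an intron of *Evpl* (chr11:116087916-116087945) across 225 kb and another, between genes in the bin of *Foxj1* (chr11:116180470-116180499), across 133 kb. *Evpl* encodes envoplakin of the skin barrier and *Foxj1* the master factor of motile cilia. The first of these pairs had 27 read pairs where 5.01 were expected, and the second had 30 where 5.89 were expected.
Evpl side: cacatgtgtCCACCAGGGGGCgctcatatc
Foxj1 side: ggacggcgtCCACCAGGGGGCgcgcgccgc
Qrich2 side: gcctctggtGCCCCCTGGTGGacatgagtg

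Facing motifs were found at 87 enriched pairs (0.862%, 0.699 to 1.06%) and opposed motifs at 52 (0.515%, 0.393 to 0.675%). Among all possible pairs of listed bins at the same separations, a set formed without the read pairs between them although the bins come from the called list, the 2 arrangements were about as common as each other, at 0.256% and 0.278%. The listed pairs outside the thresholds had facing motifs at 0.466%, between the other two sets, and opposed motifs at 0.261%, close to all possible pairs. The share of facing pairs was 0.635% under 100 kb, 1.27% from 100 to 250 kb and 1.502% from 250 to 500 kb, where the interval ran from 0.818 to 2.74%. The share of opposed pairs stayed between 0.449 and 0.601% over the same classes. From 100 to 250 kb the intervals of facing and opposed pairs lay apart, at 0.912 to 1.77% and 0.257 to 0.784%. Under 100 kb they overlapped, at 0.470 to 0.857% and 0.380 to 0.734%. They also overlapped from 250 to 500 kb, where that of opposed pairs was 0.234 to 1.53%. Beyond 500 kb, 1 of 139 enriched pairs had facing motifs and 1 had opposed motifs (0.719% each, 0.127 to 3.96%). With this motif, the arrangements could thus be told apart within a distance class only from 100 to 250 kb. Over all distances their intervals lay apart, as given above. Motifs that pointed the same way in both bins were found at 1.496% of enriched pairs, against 0.694% of the listed pairs outside and 0.545% of all possible pairs. The ratios of the arrangements lay close together. From 100 to 250 kb, the 29 pairs with facing motifs alone had a median ratio of 3.07, and the 2582 pairs without a match at both bins had 2.85.

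**Figure D1:**
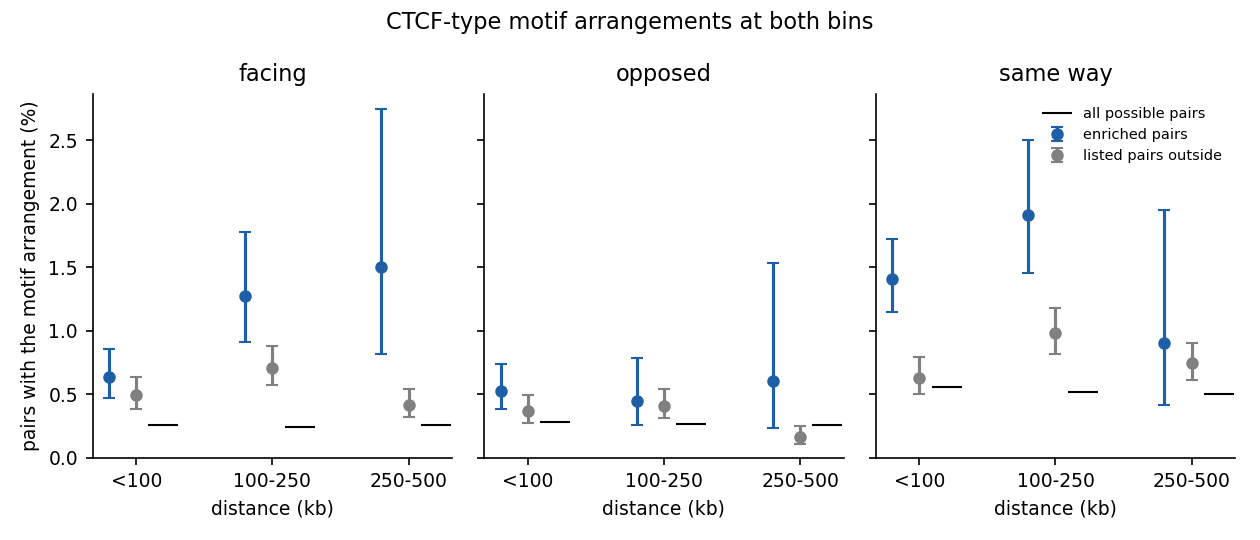
Share of bin pairs in % (vertical axis) whose 2 bins hold CTCF-type motifs that face each other, point away from each other or point the same way, by distance in kb (horizontal axis). Blue points are enriched pairs and grey points listed pairs outside the thresholds, both with Wilson 95% intervals, and black dashes are all possible pairs at the same separations. Facing motifs reached 1.27% of enriched pairs from 100 to 250 kb, while opposed motifs were at 0.449%. In the other classes drawn, the intervals of these arrangements overlapped.

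Of the motif matches in the genome, 366 (5.49%) were followed on their own strand by the same 9 bases, tcacaacca, which also end the *Wnt1* window. Without these matches, 79 enriched pairs had facing motifs and 45 had opposed motifs. The share of pairs with facing motifs was 5.80% with a looser motif, in which the fourth letter could be any base, against 3.43% with opposed motifs. In the same order, all possible pairs were at 2.39 and 2.46% and the listed pairs outside at 3.37 and 2.34%. Looser motifs that pointed the same way were at 9.25% of enriched pairs, 5.53% of listed pairs outside and 4.66% of all possible pairs. With the looser motif, the intervals of facing and opposed pairs also lay apart under 100 kb, at 4.37 to 5.41% and 2.96 to 3.83%. From 250 to 500 kb they lay apart too, at 5.35 to 9.26% and 1.83 to 4.41%. Beyond 500 kb they overlapped, at 5.55 to 15.3% and 1.12 to 7.17%. The part of base composition in these shares was not tested. A longer motif, with a G before the 12 letters, left 14 facing and 13 opposed pairs, too few to tell the arrangements apart.

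Most enriched pairs were short. Their median distance was 70.0 kb (68.1 to 71.1 kb), with quartiles of 17.4 and 127 kb, and the longest spanned 1007 kb. Measured between bins of the grid, the median was 75 kb. Neighbouring bins made up 3190 pairs (31.6%). By distance, 6619 enriched pairs lay under 100 kb (65.6%), 2671 from 100 to 250 kb (26.5%), 666 from 250 to 500 kb (6.60%) and 139 beyond 500 kb (1.38%). The listed pairs outside the thresholds had a median distance of 294 kb. This contrast follows in part from the rule, since distant bins seldom share 20 read pairs.

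**Figure D2:**
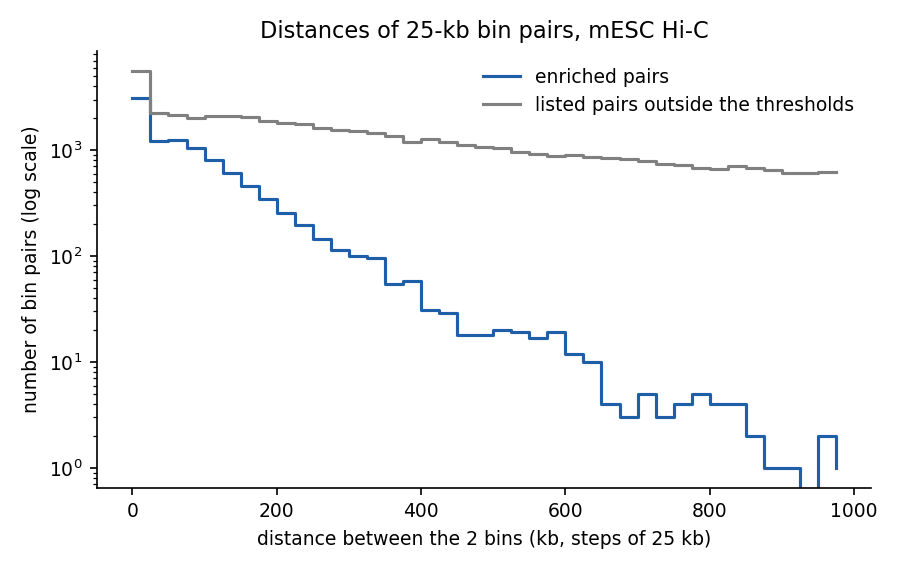
Number of bin pairs (vertical axis, log scale) in each 25-kb step of the deposited distance (horizontal axis, kb). The enriched pairs are in blue and the listed pairs outside the thresholds in grey, up to 1000 kb, and the line leaves the axis at a step without a pair. The deposited distance of neighbouring bins can be under 25 kb. The enriched pairs fall by over 3 orders of magnitude, from a peak under 25 kb to few pairs beyond 650 kb, while the other listed pairs fall far less.

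The enriched pairs had a median of 28 read pairs (quartiles 23 and 38, highest 323) where a median of 10.7 was expected, and a median ratio of 2.51 (quartiles 2.21 and 3.10). The median ratio was 2.32 under 100 kb, 2.86 from 100 to 250 kb, 3.76 from 250 to 500 kb and 5.67 beyond 500 kb. A higher ratio was needed for 20 read pairs as the expected number fell with distance. Just inside the read minimum, 889 pairs had exactly 20 read pairs, with a median ratio of 2.67, and just outside it 944 pairs had 19, with a median ratio of 2.71. At the other threshold, 1298 pairs had a ratio from 2 to 2.1 and 1582 pairs, left out, a ratio from 1.9 to 2. The deposited false discovery rate (FDR) of HOMER was under 0.05 for 4296 enriched pairs (42.6%), among them 137 of the 139 beyond 500 kb. The study's methods treat bin pairs under this limit as significant. Of the 62666 listed pairs 6135 were under it, so most enriched pairs did not meet the study's own limit.

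Genes of developmental transcription factors were frequent among the longest contacts. Beyond 500 kb, 33 of the 139 enriched pairs (23.7%, 17.4 to 31.5%) had the start of a developmental regulator or *Hox* gene in at least 1 bin, against 1.36% of the 15558 listed pairs outside the thresholds and 0.637% of all possible pairs at the same separations. In the shorter classes the share was 6.31% from 250 to 500 kb, 3.48% from 100 to 250 kb and 2.04% under 100 kb. Such genes started in both bins of 63 enriched pairs (0.624%, 0.488 to 0.798%) and of 14 listed pairs outside (0.0266%), and 7 of the 63 were beyond 500 kb. Those 7 joined *Pax9* with *Foxa1*, *Irx3* with *Irx5*, *Nkx2-1* with *Foxa1*, *Tbx5* with *Lhx5*, *Wt1* with *Pax6*, *Nkx2-2* with *Foxa2* and *Tcf21* with *Eya4*. Gene starts of any kind were also more frequent beyond 500 kb, in at least 1 bin of 69.8% of enriched pairs against 35.2% of listed pairs outside. In that class the enriched pairs had a median of 22 read pairs and the listed pairs outside a median of 6. The part of bin depth in these shares was not tested. Apart from the pairs of highest ratio in each distance class, the long pairs described here were chosen after their values were seen.

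A region of chromosome 5 had contacts between *Tbx3*, *Tbx5* and *Lhx5*. *Tbx3* and *Tbx5* encode T-box factors of the limb and heart, and *Lhx5* a LIM homeobox factor of the forebrain. The bin of *Tbx3* (120100000 to 120124999) and the bin of *Lhx5* (120875000 to 120899999) lay 768 kb apart and were joined by 85 read pairs where 2.65 were expected, a ratio of 32.1 (25.6 to 39.6). The *Tbx5* bin between them shared 34 read pairs with the *Lhx5* bin (ratio 12.8, 8.83 to 17.8) and 81 with the *Tbx3* bin (ratio 5.23, 4.15 to 6.50). The more distant pair of the *Tbx3* bin had the higher ratio, but the read minimum also demands a higher ratio at longer distance. *Tbx3* is counted among the pluripotency genes here, so its pairs are not among the 7.

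Chromosome 12 had a triangle of contacts between *Nkx2-1*, the homeobox gene of the thyroid, lung and ventral forebrain, *Pax9*, a paired box gene of the pharyngeal pouches and teeth, and *Foxa1*, a forkhead gene of the endoderm. *Pax9* and *Foxa1*, 850 kb apart, shared 45 read pairs where 1.62 were expected (ratio 27.8, 20.3 to 37.2). *Nkx2-1* and *Foxa1* shared 46 over 1007 kb, where 2.79 were expected (ratio 16.5, 12.1 to 22.02). *Nkx2-1* and *Pax9*, 157 kb apart, shared 133 where 10.9 were expected (ratio 12.1, 10.2 to 14.4). All 3 sides were enriched, and the intervals of the 2 sides that include *Nkx2-1* overlapped. Both *Nkx2-1* and *Pax9* were also joined to the bin of the start of *Slc25a21*, a mitochondrial carrier gene, at ratios of 6.13 and 9.77 on 20 read pairs each.

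On chromosome 2, *Nkx2-2*, a homeobox gene of the ventral neural tube and pancreatic islets, was joined to *Insm1*, a zinc-finger gene of neuroendocrine cells, 969 kb to one side. The pair had 29 read pairs where 1.13 were expected (ratio 25.8, 17.3 to 37.0). *Foxa2*, a forkhead gene of the endoderm and floor plate, lay 844 kb to the other side and shared 20 read pairs where 1.80 were expected (ratio 11.1, 6.79 to 17.2). The contact with *Pax1*, a gene of the developing vertebral column, had the most read pairs of the *Nkx2-2* bin, 101 over 173 kb where 10.4 were expected (ratio 9.68, 7.88 to 11.8). A further pair on chromosome 2 joined *Wt1*, a gene of the kidney and gonad, with *Pax6*, a gene of the eye and forebrain, by 63 read pairs over 548 kb (ratio 12.2, 9.35 to 15.6).

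The Iroquois genes encode homeobox factors and lie in 2 clusters. On chromosome 8, *Irx3* and *Irx5* shared 70 read pairs over 552 kb where 3.75 were expected (ratio 18.7, 14.6 to 23.6). On chromosome 13, the *Irx2* bin shared 41 read pairs over 670 kb with a bin in the body of *Irx1* (ratio 36.2, 26.0 to 49.2). In the other direction it shared 24 read pairs over 644 kb with a bin in the body of *Irx4* (ratio 8.72, 5.59 to 13.0). All 3 pairs thus joined Iroquois genes of the same cluster.

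Further pairs beyond 500 kb also had developmental genes at one or both ends. *Tbx1*, the T-box gene of the pharyngeal arches, shared 27 read pairs over 783 kb with a bin in *Scarf2*, a scavenger receptor gene (ratio 24.4, 16.1 to 35.5). *Prdm13* and *Pou3f2*, neural factors, shared 39 over 805 kb (ratio 15.6, 11.1 to 21.4). *Cyp26b1*, which degrades retinoic acid, was joined on one side to *Vax2*, a retinal homeobox gene (ratio 17.3, 11.7 to 24.7), and on the other to *Emx1*, a cortical one (ratio 11.5, 8.30 to 15.6). *Foxl2*, a gene of the ovary, was joined over 910 kb to a bin in *Sox14* (ratio 16.6, 10.5 to 25.0). *Shh*, the hedgehog ligand, was joined over 1002 kb to a bin in *Mnx1*, a motor neuron gene, and *Nom1* (ratio 10.8, 6.66 to 16.4). *Sox2*, a factor of pluripotency and neural progenitors, was joined by 23 read pairs over 848 kb to a bin without an annotated gene (ratio 8.28, 5.25 to 12.4).

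Most enriched pairs beyond 500 kb did not join such genes. Of the 139, 33 had the start of a developmental regulator or *Hox* gene in at least 1 bin and 7 in both. The bin at 17950000 on chromosome 2, with the starts of *A930004D18Rik* and *2810030E01Rik*, shared 102 read pairs where 3.29 were expected with a bin 649 kb away. That bin holds the starts of *Gm13334* and *BC061194* and part of *Bmi1*, the gene of a Polycomb subunit, and the ratio was 30.99 (25.3 to 37.6). The neighbouring bin with the start of *Bmi1* shared 60 read pairs with it (ratio 15.6, 11.9 to 20.1).

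**Figure D3:**
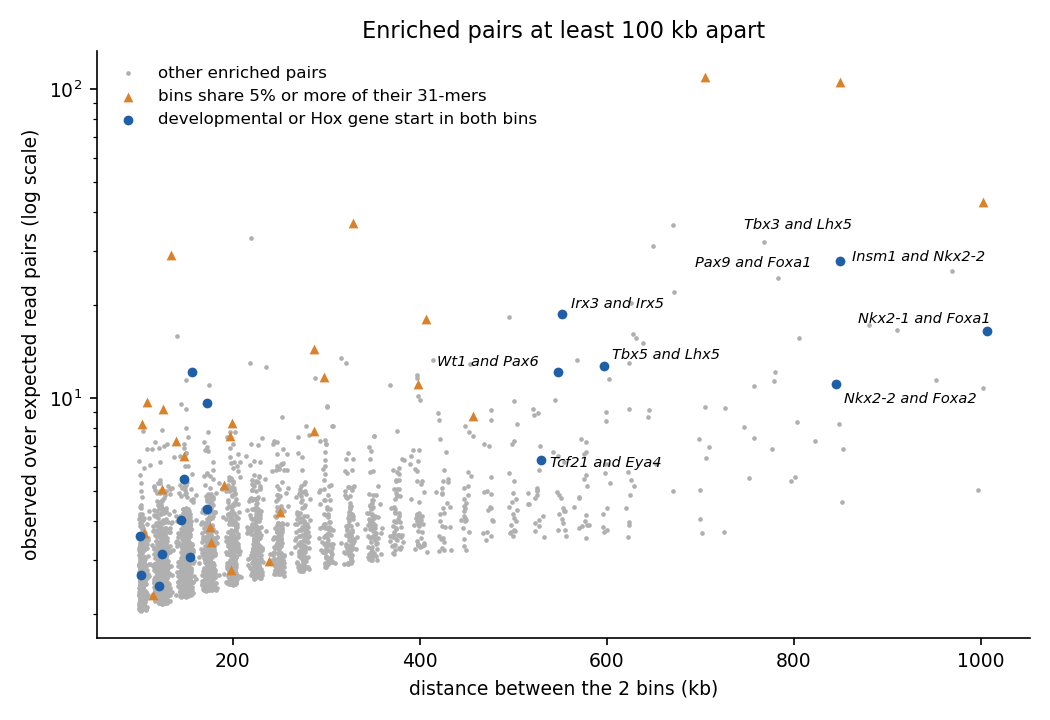
Observed over expected read pairs (vertical axis, log scale) against the distance of the 2 bins in kb (horizontal axis) for the enriched pairs at least 100 kb apart. Blue points have a developmental regulator or *Hox* start in both bins, orange triangles are pairs of similar sequence and grey points are the rest, and the rising lower edge comes from the thresholds and the caller. The pairs of *Tbx3* with *Lhx5* at 32.1 and *Pax9* with *Foxa1* at 27.8 stand far above most pairs at their distances, while the highest ratios of all are pairs of similar sequence.

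Among the pairs of highest ratio, several joined bins of similar sequence, in which reads of one copy can be placed on the other. Similarity was measured as the share of 31-base words of a bin that also occur in its partner, with a median of 0.133% over the enriched pairs. The highest ratio of all, 109 (68.4 to 165), came from 22 read pairs where 0.202 were expected between bins on chromosome 14 in *Trav6d-3* and *Trav6-3*, variable segments of the T cell receptor alpha locus, which shared 43.0% of their words. The pair at 113100000 and 113950000 on chromosome 4, outside annotated genes, had a ratio of 105 and shared 23.5%. The pair of *Pramef17* and *Gm13128* on the same chromosome had a ratio of 37.0 and shared 42.3%, and the third-highest pair beyond 500 kb, on chromosome 1, had a ratio of 43.2 and shared 7.77%. The part of this similarity in the ratios was not tested. In all, 183 enriched pairs shared at least 5% of their words (1.81%), a share close to that of the listed pairs outside the thresholds (1.66%). The *Tbx3*, *Pax9*, *Irx3*, *Nkx2-2* and *Irx2* pairs described above shared at most 0.176%.

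From 250 to 500 kb, the highest ratio without such similarity was that of *Lbx1*, a homeobox gene of muscle precursors, with a bin 495 kb away on chromosome 19. They shared 30 read pairs where 1.64 were expected (ratio 18.3, 12.3 to 26.1). The same distant bin was joined to a bin in *Tlx1*, a homeobox gene needed for the spleen, by 30 read pairs (ratio 13.3). It adjoins the bin of *Pax2*, a kidney gene, which was itself joined to the *Lbx1* bin by 21 read pairs (ratio 8.52, 5.27 to 13.0). The pair of *Wnt1* printed above came between, at 13.5 (8.87 to 19.6).

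From 100 to 250 kb, the highest ratio was 32.9 (25.2 to 42.3), on 61 read pairs over 219 kb of chromosome 7 between a bin outside genes and a bin in *Cyp2b9*, a cytochrome P450 gene of a large family, with 3.27% of words shared. The next, on chromosome 5, had 42 read pairs (ratio 29.1) and 6.41% of words shared. Among pairs with under 1% of words shared, 2 bins within the gene *Fam163a* were joined by 21 read pairs (ratio 15.9, 9.81 to 24.2). Next came a pair outside annotated genes on chromosome 17 (ratio 12.98) and 2 bins in *Sim2*, a neural factor gene, with 23 read pairs (ratio 12.6, 8.01 to 18.96). Under 100 kb, ratios reached 10.4 (7.18 to 14.7) for neighbouring bins on chromosome 12 and 9.86 (6.18 to 14.9) for neighbouring bins on chromosome 5, both outside annotated genes. The bin of *Lyl1*, a blood stem cell factor, had 41 read pairs over 94.7 kb with a bin in *Dand5*, an antagonist of Nodal signalling (ratio 9.57, 6.87 to 13.0).

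The 5 pairs with the most read pairs above expectation lay in the *Hox* clusters, and 4 of them are described here. *Hox* genes encode the homeobox factors of the body axis. The bin of *Hoxb5* and *Hoxb6* shared 323 read pairs with the neighbouring bin of *Hoxb3* and *Hoxb4*, where 88.2 were expected (ratio 3.66, 3.27 to 4.08). In *Hoxc*, the bins of *Hoxc10* and *Hoxc11* and of *Hoxc4* to *Hoxc6* shared 248 where 34.4 were expected (ratio 7.20, 6.33 to 8.15). The other two pairs joined the *Hoxa9* to *Hoxa11* bin with the bins of *Hoxa4* (243 read pairs, ratio 5.34) and of *Hoxa3* and *Hoxa5* to *Hoxa7* (268 read pairs, ratio 3.48). These bins were among the deepest, with 2301 to 3625 read ends each where the median listed bin had 1432.

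The 4 clusters differed in how far their contacts reached. In *Hoxa*, all 10 possible pairs of its 5 bins were enriched (median ratio 4.55), and 6 pairs left the cluster, as far as 997 kb on 24 read pairs. In *Hoxb*, 13 of 15 were enriched (median ratio 2.79) and 23 left it, as far as 595 kb. All 6 pairs within *Hoxc* were enriched (median ratio 4.19) and 26 left it, none farther than 242 kb. In *Hoxd*, 3 of 6 were enriched (median ratio 3.40) and 8 left it, as far as 448 kb. Every one of the 39 *Hox* genes thus started in a bin of an enriched pair, although they share 19 bins and are not independent. *Evx1*, a homeobox gene beside *Hoxa13*, was joined to the bin of *Hoxa13* at a ratio of 4.42 and to that of *Hoxa9*, *Hoxa10* and *Hoxa11* at 4.14. *Evx2*, beside *Hoxd13*, was joined to bins of *Hoxd13*, *Hoxd9* and *Hoxd4* at 2.95, 4.00 and 4.44.

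Most bins had few partners. Of the 14606 bins of enriched pairs, 11108 had 1 partner (76.1%), 1229 had 3 or more and 196 had 5 or more (1.34%). The bin of *Hoxb5* and *Hoxb6* (chromosome 11, 96150000 to 96174999) had the most, 12, at 23.2 to 577 kb and ratios of 2.07 to 6.62. The bin of *Hoxc10* and *Hoxc11* had 11, within 219 kb, with ratios of 7.20 for *Hoxc4* to *Hoxc6* and 7.11 for the farthest. The *Nkx2-2* bin had 10 partners spread over almost 2 Mb, 5 on each side, with a median ratio of 3.79.

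**Figure D4:**
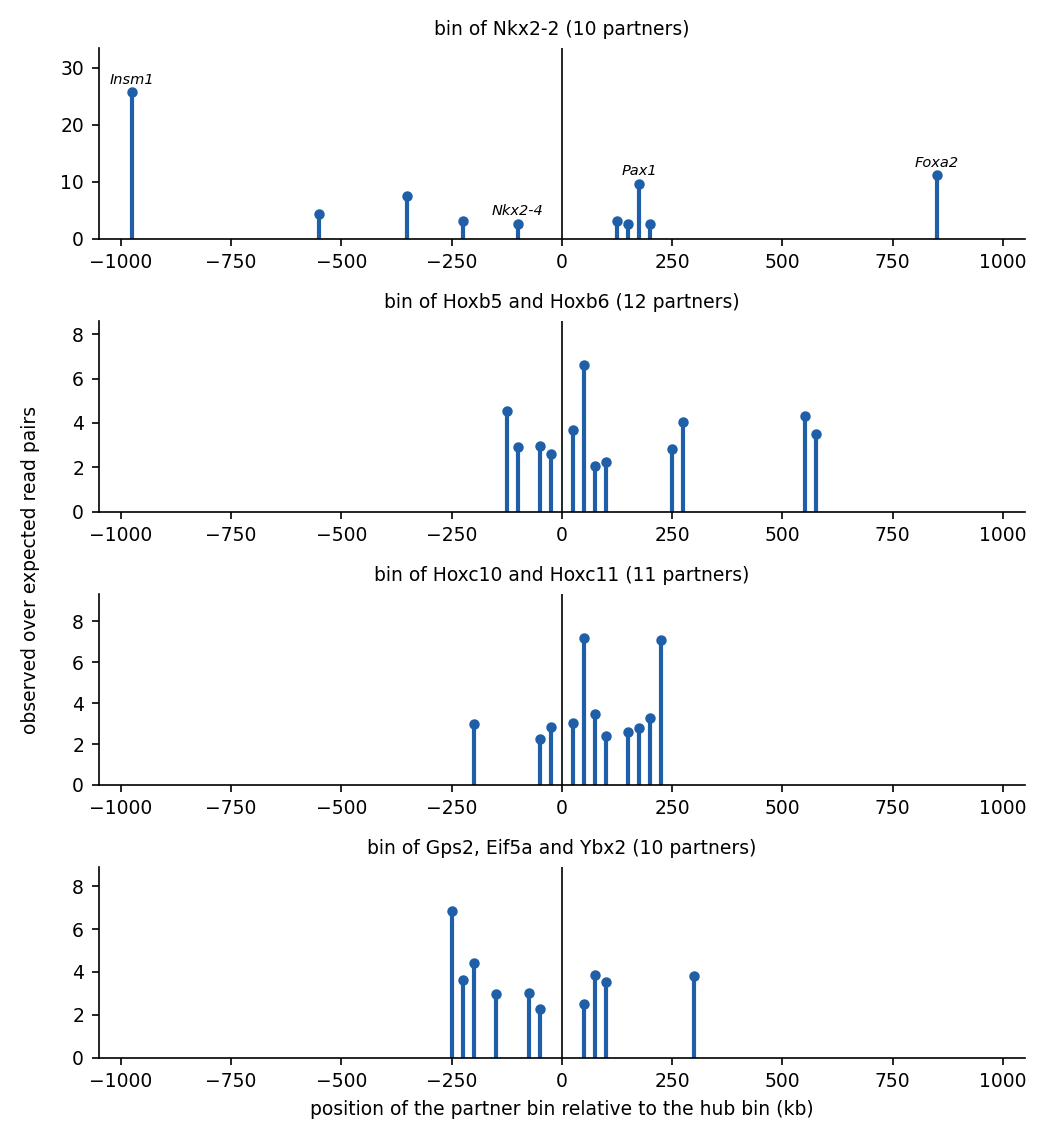
Observed over expected read pairs (vertical axes) of each partner bin against its position relative to the hub bin in kb (horizontal axis), for 4 bins with many partners; the vertical line at 0 is the hub. The partners of *Nkx2-2* reach from *Insm1* at a ratio of 25.8 to *Foxa2* at 11.1, while those of the *Hoxc10* and *Hoxc11* bin all lie within 225 kb.

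Several further hub bins held genes of other kinds. On chromosome 11, the bin of *Gps2*, *Eif5a* and *Ybx2*, genes of a corepressor subunit, a translation factor and a germ cell protein, had 10 partners within 298 kb (median ratio 3.58). On chromosome 17, a bin of the major histocompatibility complex with *Csnk2b*, *Apom* and *Bag6* had 9, among them the bins of *Hspa1a*, *Msh5*, *Aif1* and *Ddx39b*. The bin of *Hsp90ab1*, the constitutive heat shock protein HSP90 beta, and *Slc35b2* had 8 partners within 118 kb at ratios of 2.62 to 4.72. The bins of *Fam57b* on chromosome 7 and of *Mll2*, a histone methyltransferase gene, on chromosome 15 had 8 each. So did 2 bins without a gene start, one beside the *Hist2* histone genes on chromosome 3 and one beside the protocadherin genes on chromosome 18. All 8 partners of *Fam57b* lay on the same side of it, 75.2 to 300.0 kb away.

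Enriched pairs that touch in the contact map were grouped into 7219 patches. Of these, 5751 were single pairs (79.7%) and 22 had 10 pairs or more. The largest, with 36 pairs and 2099 read pairs where 576 were expected, spanned 325 kb from *Hoxc13* to *Smug1*, a DNA repair gene. The second had 25 pairs over 275 kb of chromosome 11 (69475000 to 69749999), from *Mpdu1* through *Polr2a*, the gene of the largest subunit of RNA polymerase II, to *Gps2*. The third had 19 pairs in the major histocompatibility complex on chromosome 17, from *Hspa1a* to *Prrc2a* and *Aif1*. Next came 17 pairs that linked *Calcoco2* and *Hoxb13* with the *Hoxb* cluster and 15 pairs within *Hoxb*. The next patches lay around *Myh9* and *Apol8* on chromosome 15 (15 pairs), around *Zdhhc22* on chromosome 12 (15 pairs) and from *Nacc1* through *Lyl1* and *Nfix* to *Calr* on chromosome 8 (13 pairs). A patch from *Arhgap23* to *Srcin1* on chromosome 11 also had 13 pairs. The summed read pairs of these patches were 2.69 to 3.72 times the expected sum, the *Hoxb* patch with *Hoxb13* being highest.

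Bins of enriched pairs were rich in gene starts. A gene started in 39.4% of them (38.6 to 40.2%), against 26.4% of all listed bins, and a protein-coding gene in 31.9% against 19.9%. Both bins held a gene start in 24.9% of enriched pairs (24.1 to 25.7%), against 14.9% of the listed pairs outside the thresholds and 13.0% of all possible pairs at the same separations. The share was higher than outside in each distance class, without a steady change over distance. It was 25.2% against 19.6% under 100 kb and 25.9% against 20.1% from 100 to 250 kb. From 250 to 500 kb it was 16.5% against 12.5%, and for the 139 pairs beyond 500 kb it was 28.8% (21.9 to 36.8%) against 9.47%. The 2 bins overlapped the body of the same gene in 27.1% of enriched pairs and 13.1% of the listed pairs outside, but within distance classes these shares were alike, 36.4% and 36.0% under 100 kb and 10.4% and 10.3% from 100 to 250 kb.

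The enriched bins also differed in base composition and depth, which move with gene starts. Their median GC content was 45.3%, against 42.1% over all listed bins, and they had a median of 1635 read ends against 1432, while both had a median of 7 HindIII sites. Within the quartile of listed bins richest in GC, 53.7% of bins with a protein-coding start and 42.4% of bins without one were in an enriched pair. Within the quartile poorest in GC the shares were 9.11 and 8.11%, with overlapping intervals. Within the deepest quartile they were 50.6 and 30.5%, and within the shallowest 25.4 and 16.3%. Bins with the start of a developmental regulator or *Hox* gene were in an enriched pair more often than other bins of the quartile richest in GC, at 70.1% (62.2 to 76.9%) against 46.5%, and of the deepest quartile, at 76.5% (66.4 to 84.2%) against 34.7%. In the shallowest quartile 5 of 20 such bins were in an enriched pair (25.0%, 11.2 to 46.9%), against 17.9% of the other bins, with overlapping intervals.

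Gene lists differed widely in how many members started in an enriched bin. Genes that started outside the listed bins were counted as not in an enriched bin. A listed bin held the start of 15052 of 22207 protein-coding genes and 168 of 181 developmental regulators. It was 804 of 1419 for the olfactory and vomeronasal receptor genes. Over all 22207 protein-coding genes the share in an enriched bin was 28.4% (27.8 to 29.0%), and 4.47% started in a bin with 3 or more partners. Among 181 developmental regulators it was 58.6% (106 genes, 51.3 to 65.5%), and 20.99% had 3 or more partners. The bins of *Nkx2-2* (10 partners), *Sim2* (7), *Lhx1* (6) and *Evx1* (6) had the most, and *Neurod2*, *Nkx2-1* and *Pax2* also had 6. The partners of *Sim2* lay on both sides, 172 to 452 kb away, and 6 of the 7 on the side of its own gene body and of *Hlcs*, the gene of a biotin ligase. *Six3* was joined to *Six2*, a homeobox gene of the same family, by 69 read pairs (ratio 7.30, 5.68 to 9.23).

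**Figure D5:**
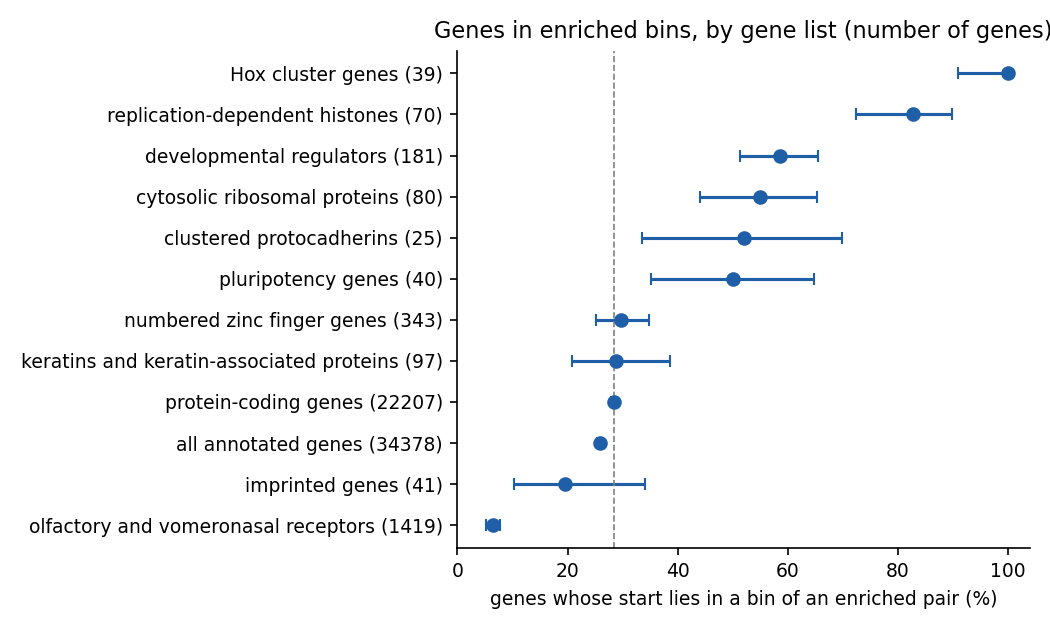
Share of genes in % (horizontal axis) whose start lies in a bin of an enriched pair, for each gene list with its number of genes in brackets (vertical axis). The numbers include genes that start outside the listed bins. Points are shares with Wilson 95% intervals and the dashed line marks all protein-coding genes at 28.4%; *Hox* genes are at 100% and the receptors of smell at 6.41%.

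Of 40 genes with a role in pluripotency, 20 (50.0%, 35.2 to 64.8%) started in an enriched bin, but only *Tbx3*, with 5 partners, and *Lefty2*, with 3, had more than 2. *Nanog*, the homeobox factor of naive pluripotency, was joined by 51 read pairs to a bin 48.9 kb away where 15.1 were expected (ratio 3.38, 2.52 to 4.45). It was also joined to *Dppa3* by 20 where 9.96 were expected (ratio 2.01, 1.23 to 3.10), a pair at the edge of both thresholds. *Dppa2* and *Dppa4*, neighbours that encode a pair of chromatin proteins, shared 58 read pairs (ratio 2.68, 2.04 to 3.47). *Lefty1* and *Lefty2*, inhibitors of Nodal, shared 29 over 59.8 kb (ratio 2.39, 1.60 to 3.43). The bin of *Klf2*, another naive factor, was joined to bins in *Eps15l1* and *Ap1m1* at ratios of 2.14 and 2.45. These ratios were lower than those of the developmental genes at long distance, as were their distances. The read minimum demands a higher ratio at longer distance, so these ratios cannot be compared with those of the long pairs. Over all enriched pairs the median ratio was 2.32 under 100 kb and 5.67 beyond 500 kb.

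The remaining lists ran from the histones to the receptors of smell. Of 70 replication-dependent histone genes, packed into 21 bins, 58 started in an enriched bin (82.9%), and the bin of *Hist1h1d*, *Hist1h3f* and others on chromosome 13 had 5 partners. Cytosolic ribosomal protein genes were at 55.0% (44 of 80, 44.1 to 65.4%), with 6 partners for the bin of *Rpl23a* and 4 for that of *Rpl13a*. Clustered protocadherin genes, which encode neuronal adhesion proteins, were at 52.0% (13 of 25), with 4 partners for *Pcdhgc5* and 3 for *Pcdhb19*. Numbered zinc finger genes (29.7%, 102 of 343, with *Zfp740* and *Zfp867* at 5 and 4 partners) and keratins (28.9%, 28 of 97, with *Krt86* and *Krt78* at 5 and 3) lay close to all protein-coding genes. Imprinted genes were at 19.5% (8 of 41, 10.2 to 34.0%). Among them *Nnat*, a gene of a brain proteolipid, had 7 partners, all to one side as far as *Rpn2* 277 kb away, and *Igf2*, the growth factor gene, had 2, at 154 and 349 kb. Olfactory and vomeronasal receptor genes were lowest, at 6.41% (91 of 1419, 5.25 to 7.81%), and the bin of *Vmn1r1* alone among them had more than 2 partners. Their bins had a median of 1135 read ends and 38.3% GC, against 1730 read ends and 47.9% GC for the developmental regulators, and the part of depth and base composition in these shares was not tested.

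Chromosome 11 held 1260 enriched pairs, 372 per 1000 listed bins, while the other autosomes had 118 to 227. Its bins had a median of 1986 read ends, and those of the other autosomes 1330 to 1814, the highest on chromosome 8. With the ratio threshold alone and no read minimum, chromosome 11 had 1154 pairs per 1000 bins, within the range of 810 to 1172 on the other autosomes. Its listed pairs lay above the others, at 1325 per 1000 bins against 906 to 1301, and 28.1% of them were enriched, against 12.2 to 19.7%. Its median GC content was 44.4%, against 40.5 to 44.0% on the other autosomes. A protein-coding gene started in 28.7% of its bins, against 13.9 to 32.0%. Chromosome X had 53.5 enriched pairs per 1000 bins and a median of 712 read ends. Of the 106 developmental regulators in an enriched bin, 100 lay on the other chromosomes, so the list did not rest on chromosome 11. The *Hoxb* cluster and the *Gps2* and *Polr2a* region lie on chromosome 11, and the part of its depth in their partners was not tested. The parts of depth, GC content and gene starts in its number of enriched pairs were not tested either.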

How the data were processed

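One Hi-C library of mESCs was analysed. The submitters' processing notes name Bowtie 1.1.0 and HOMER 4.7, and the study's methods name HiCUP for mapping and filtering read pairs on mm9 and HOMER for calling bin pairs. The deposited list gives, for each pair of 25-kb bins up to 1 Mb apart, the count of read pairs, the expected count of the authors' HOMER model (from the coverage of both bins and their distance), the total read ends of each bin (a coverage signal) and the p-value adjusted as an FDR. HOMER had already selected the listed pairs, so absent pairs are not known to lack contacts, and the library's total is not in the list. The listed bins had a median of 1432 read ends. Of the list, 3 columns were not used, and the capture lists and the list of larger bins were not used.

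Pairs with at least 20 read pairs and an observed over expected ratio of at least 2 were kept. Genes were placed by their 5' start in the 25-kb grid bin with GENCODE vM1 (34378 genes, mm9), and motifs, GC, HindIII sites and shared 31-base words were read from mm9. Comparison sets were the other listed pairs and all possible pairs of listed bins at the same separations. Intervals were Wilson for shares, exact Poisson for ratios and order-statistic for medians, at 95%, and pairs that share a bin are not independent. Motif windows of chromosome 18 were not considered for printing. No test was made with 1 library. Genes named by rule were those of the 3 highest ratios per distance class, the 5 largest excesses of read pairs, the 8 largest patches, the 8 bins with most partners (1 per patch) and up to 4 genes per list. The other genes named, among them those of the remaining long pairs, of the printed motif windows and of the gene lists, were chosen after their values were seen. The bin pairs and gene lists were chosen with earlier results of these data known. Alternatives changed the thresholds, bins, genes, motif and distances. Scripts used Python 3.11.15, pandas 2.3.3, NumPy 2.4.6, SciPy 1.17.1 and matplotlib 3.10.9 and were tested on simulated data. Some items are not reported here.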

Additional observations from a re-analysis of the deposited data

How the results depend on the processing

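Of 105 alternative values, 58 stayed within the limits set for each result and 47 moved. The enriched pairs numbered 2381 with a minimum of 40 read pairs, 2808 with a minimum ratio of 3, 4296 with an FDR under 0.05, 3257 with an FDR under 0.01 and 3476 at 100 kb or more. In the same order, the median distance was 15.9, 151, 72.8, 71.3 and 172 kb, and the median ratio 2.35, 3.64, 3.12, 3.26 and 3.09. The share with a gene start in both bins was 26.7% with 40 read pairs, 28.6% with a ratio of 3, 27.8% and 28.6% with the FDR limits, 66.3% by gene body and 18.5% for protein-coding genes. The share with facing motifs was 1.42% with a ratio of 3, 1.07% and 1.14% with the FDR limits, 1.29% at 100 kb or more, 5.80% with the looser motif and 0.139% with the longer one. Receptors of smell in an enriched bin numbered 18, 22, 28, 21 and 24 in the order above, and developmental regulators 55 with 40 read pairs. The most partners of a bin were 7 with a ratio of 3 and 7 with each patch counted once, which also gave a median distance of 50.4 kb and 21.6% with gene starts in both bins. The median ratio was 2.48 for bins of middle depth, and the median distance 75 kb between bin midpoints. The remaining settings were chosen after seeing the data. Without chromosome 11 the median distance was 65.0 kb and the share with gene starts 22.7%. Without adjacent bins they were 100.4 kb and 28.7%, the median ratio was 2.68, facing motifs were at 1.12% and receptors of smell numbered 38. By the deposited windows the share with gene starts was 26.7%. The share with facing motifs exceeded that with opposed motifs in all 13 settings compared, the reported one included, and with the longer motif by 14 pairs to 13. These settings reuse the same pairs and are not separate checks. Among the 13, the shares were closest without chromosome 11, at 0.713% facing and 0.521% opposed. In the reported setting they were 0.862 and 0.515%. No paired analysis was possible because the Hi-C data are 1 library. The counts per bin limit contacts beyond 500 kb, where 20 read pairs far exceed the expected number.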
